A study of Mus musculus with 12 samples.

Results

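The genes described here conjugate, hydrolyse or oxidise drugs, hormones, bilirubin and bile acids. They were chosen by name alone: every gene probe of the array whose name begins with Ugt1, Ugt2, Sult, Ces, Fmo, Ephx, Aldh or Akr1, or with Adh and a number, without Akr1d1. Of the 41174 gene probes on the array, 110 met this rule, and they stood for 76 of 28785 gene names. Of the 76, 75 belonged to 8 enzyme families, and fibromodulin (Fmod), a collagen-binding proteoglycan that shares only the letters, was kept out of the family counts. In the families, 63 genes had a probe bright enough to test and 12 did not.

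The study measured total RNA of Abcb4 (-/-) mouse liver, in which the canalicular phospholipid export pump is missing and which is a model of sclerosing cholangitis, against Abcb4 (+/+) liver on 12 two-colour Agilent arrays. Knockout mice had been fed cholic acid (CA), stated to raise disease activity, or ursodeoxycholic acid (UDCA), stated to lower it, for 9 weeks. Each diet group had 5 knockout livers and 6 arrays, because 1 randomly chosen liver was hybridised again with the dyes exchanged. On 3 arrays of each group the knockout RNA carried Cy5 and on the other 3 it carried Cy3. Wild-type mice served as controls in each group, possibly the same livers in both, and the labels used here give no diet for them and no sex, strain or age for any mouse, so that the effects of the missing pump and of the diet in a ratio to wild type cannot be told apart. Livers were not pooled. All ratios below are log2 values of knockout over wild type, with the standard error (SE) of the fit, from 6 arrays per diet unless the scanner had flagged spots as outliers. Such spots were left out, so that Aldh1a1 had 4 values with CA, Aldh6a1 had 4 with each diet, Aldh16a1 had 5 with each, Aldh1a7, Aldh1l1 and the brightest Ugt1a6b probe had 5 with CA, and Adh5 had 5 with UDCA.

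UDP-glucuronosyltransferases (UGTs) attach glucuronic acid to bilirubin, steroids, bile acids and drugs, and sulfotransferases (SULTs) attach sulfate; both reactions make their substrates more soluble for export into bile or urine. Carboxylesterases (CESs) cut ester bonds, flavin monooxygenases (FMOs) oxidise nitrogen and sulfur, and epoxide hydrolases (EPHXs) open epoxides. Alcohol dehydrogenases (ADHs), aldehyde dehydrogenases (ALDHs) and aldo-keto reductases (AKR1s) move compounds between the alcohol, aldehyde or ketone and acid forms. In liver many of these genes are controlled by the nuclear receptors CAR (Nr1i3) and PXR (Nr1i2), by the oxidative stress factor NRF2 (Nfe2l2) and by hepatocyte factors such as HNF4 (Hnf4a).

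The array reads each gene through probes of 60 bases. The following are shown because the results turn on them; each reads through without a stop codon in at least 1 frame, and each is written 5′ to 3′ with no base singled out. The Ugt1 genes share their last exons and differ in their first exon, so the probes for Ugt1a1 (chr1:88115927-88115986, mouse build mm7, plus strand) and Ugt1a9 (chr1:87975078-87975137, plus strand) separate them. The probe for Ugt2b38 (chr5:87358365-87358424, minus strand) was listed by the array with transcripts of Ugt2b37, Ugt2b38 and Ugt2b5, and that for Akr1c13 (chr13:4087761-4089711, plus strand, spanning an intron) with transcripts of Akr1c12 and Akr1c13. Those for Ugt2a1 (chr5:87398867-87399681, minus strand) and Ces2c (chr8:103450327-103450648, plus strand) also span an intron, since their genomic interval is longer than the probe. The probes for Ces2a (chr8:103337918-103337977, plus strand), Sult5a1 (chr8:121784746-121784805, minus strand) and Akr1c12 (chr13:4157321-4157380, minus strand) lie within 1 interval of the genome.
Ugt1a1: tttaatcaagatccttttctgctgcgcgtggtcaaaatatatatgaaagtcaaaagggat
Ugt1a9: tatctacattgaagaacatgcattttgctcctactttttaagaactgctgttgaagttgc
Ugt2a1: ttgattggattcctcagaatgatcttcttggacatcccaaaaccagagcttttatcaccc
Ugt2b38: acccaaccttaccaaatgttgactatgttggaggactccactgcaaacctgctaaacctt
Ces2c: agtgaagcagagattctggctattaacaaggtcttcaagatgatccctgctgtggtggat
Ces2a: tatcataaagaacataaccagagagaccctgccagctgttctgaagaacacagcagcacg
Sult5a1: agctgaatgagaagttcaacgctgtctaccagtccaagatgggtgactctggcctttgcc
Akr1c12: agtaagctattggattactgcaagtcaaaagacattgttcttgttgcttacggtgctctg
Akr1c13: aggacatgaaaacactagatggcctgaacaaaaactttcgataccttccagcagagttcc

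Among the brightest tested probes of the 76 names, 4 were listed with transcripts of over 1 gene: those of Ugt1a6b, Ugt2b37, Ugt2b38 and Akr1c13. Their values are sums over near-identical genes and are uncertain for any 1 of them. The brightest Ugt1a6b probe lay downstream of the Ugt1a1 probe, at chr1:88122519-88122578 on the plus strand, and was listed with Ugt1a1, Ugt1a10, Ugt1a5 and Ugt1a6b.

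Median signals ranged over the 12 arrays from 250.2 to 1296 in the green channel and from 59.2 to 158.2 in the red, and 31.6% to 68.4% of probes stood well above background in a channel. The green channel reached the ceiling of the scanner for many of the brightest genes. Of the 63 genes, 29 had their brightest probe saturated on 6 or more arrays, which squeezes a ratio and ties it to the dye, and 22 had it saturated on none. CA arrays 3 and 4 stood apart: the mean ratio of 3 pancreatic enzyme genes was -3.55 and -3.36 on these, whereas the remaining 4 CA arrays gave values from -0.82 to -0.36. Without those arrays 10 members were higher and 28 lower with CA (5374 and 2995 of 15373 names), where all arrays gave 10 and 33 members. With UDCA 10 members were then higher and 8 lower (2817 and 1558 names). In the difference between the diets 5 members were higher and 18 lower (2768 and 1186 names).

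With CA, 33 of 63 detoxification genes were lower than in wild type and 10 were higher (limma, Benjamini-Hochberg adjusted p under 0.05 over all probes, here named "called"). Over all 15374 tested names, 22.4% were called lower and 37.8% higher. Only probes above background on all 12 arrays in both channels left 2 members higher with CA over 52 genes, where 2750 of 9336 names were higher. With UDCA 9 members were lower and 10 higher, where 8.79% of all names were lower and 17.2% higher. In the difference of the diets, CA minus UDCA, 21 members were lower and 4 higher, where 8.87% of all names were lower and 18.8% higher; of the 4 higher, Sult1e1 and Sult2b1 read at or near background with UDCA. The median ratio over the 63 genes was -0.48 with CA and -0.07 with UDCA, and over all names 0.10 and 0.04. Changes of 2-fold or more among the called genes were downward in 16 members for CA, in 2 for UDCA and in 12 for CA minus UDCA (4.74%, 1.48% and 1.82% of all names), and upward in 5, 2 and 1 (13.4%, 3.98% and 6.2%).

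With CA, 23 members were lower that were not called with UDCA (15.2% of all names); 7 were lower with both diets (6.79% of all names), and 3 were higher with both (14.6%). Another 3 were lower with CA and higher with UDCA by their brightest probe, a pattern that 0.403% of all names showed: Ugt2b34, Ugt2b35 and Aldh3a2. The UDCA calls of Ugt2b34 (0.49, adjusted p = 0.0973) and Aldh3a2 (0.52, adjusted p = 0.0522) ended with the scanner's own processed signals, and with median centring in place of loess all 3 genes kept their directions and lost both calls (adjusted p from 0.124 to 0.587). No member was higher with CA and lower with UDCA (0.28% of all names), and 14 were called with neither (35.8%). In 13 members called lower in the difference, all CA ratios lay below all UDCA ratios (3.01% of all names), and in 1, Fmo2, all CA ratios lay above (6.97%). The plot of the genes by family shows the fitted values and which of them were called.

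Slides 3 and 4 of the 5 slides held arrays of both diets, with 1 CA array each. On slide 3 the CA array had the knockout RNA in Cy3 and both UDCA arrays had it in Cy5, so that diet and dye cannot be told apart there; on slide 4 the CA array and 2 of 3 UDCA arrays had it in Cy3. For the 25 members called in the difference, which were chosen on these same arrays, the within-slide differences had medians of -1.05 and -0.82, against -0.97 over all arrays, and Sult1c2 had the opposite sign within slide 3. With slide as a fixed block, 14 members were lower and 0 higher in the difference by limma, where 465 and 1199 of all 15374 names were. The block ended the CA calls of Aldh1a1 (-0.11), Aldh5a1 (-0.27), Ces1d (-0.59), Ephx2 (-0.56), Sult4a1 (-0.17), Ugt1a6b (-0.19) and Ugt2b37 (-0.34), with adjusted p from 0.0556 to 0.704. It ended the UDCA calls of Akr1c14 (-0.15), Aldh1a7 (0.12), Aldh1l1 (-0.55), Aldh9a1 (-0.42), Ces1g (0.69), Ces2e (0.43) and Ugt2b1 (-0.37), with adjusted p from 0.0707 to 0.665. In the difference it ended those of Akr1c13 (-1.15), Aldh1a1 (0.08), Aldh3b1 (0.95), Ces1g (-0.75), Fmo2 (0.76), Fmo4 (-0.60), Sult1c1 (-1.05), Sult1c2 (-0.62), Sult1e1 (0.93), Sult2b1 (0.60) and Ugt2a3 (-1.0), with adjusted p from 0.0598 to 0.936. Under the same block the differences of Fmo1 and Akr1c14 moved to -2.07 and -1.93, the CA value of Aldh18a1 to 0.63 and the UDCA value of Fmo5 to 0.60, all still called. Slide as a random block ended the calls of Aldh6a1 with UDCA (-0.81, adjusted p = 0.0984) and Aldh8a1 with CA (-0.39, adjusted p = 0.0549), which the fixed block did not.

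**Figure D1:**
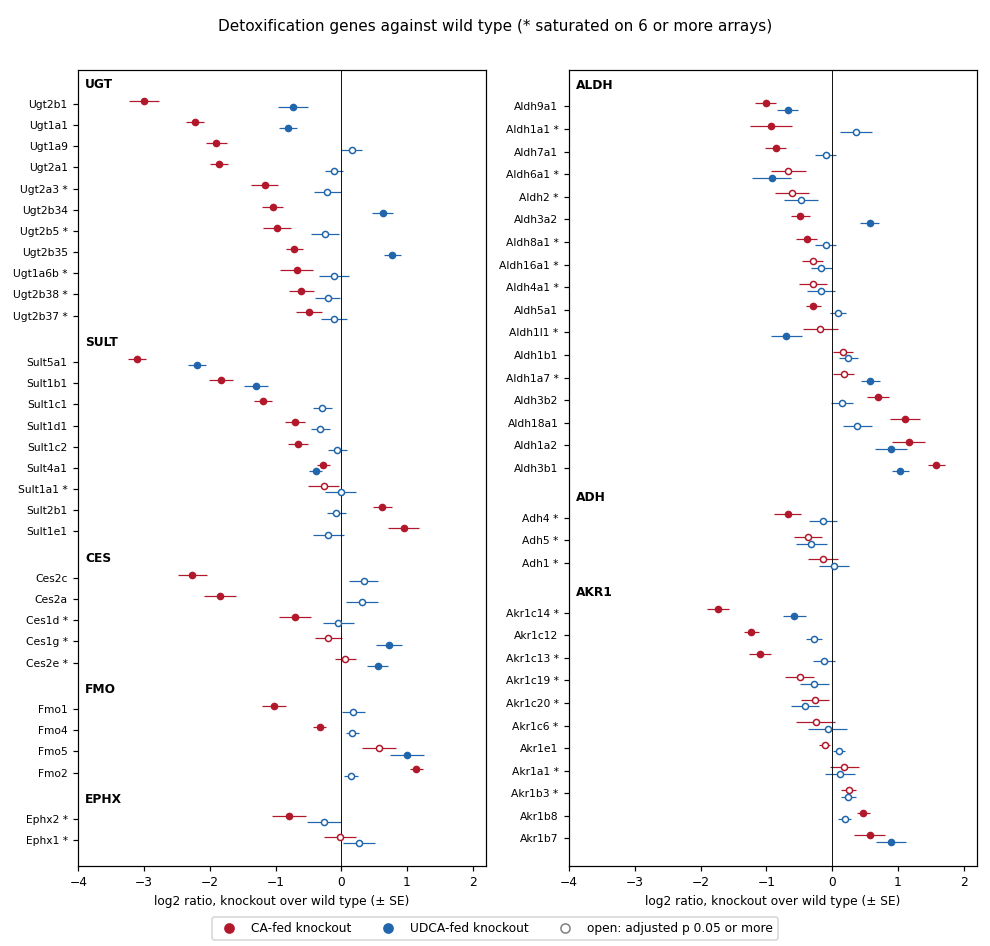
Fitted log2 ratios of knockout over wild type (horizontal axis, with SE) for the tested genes, by family, without 1 gene; red is the CA-fed and blue the UDCA-fed group, filled points were called and open points were not. All 11 UGT genes lie left of 0 with CA, and genes with a star were saturated on 6 or more arrays.

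All 11 tested UGT genes were called lower with CA in the main fit (22.4% of all names), with ratios from -3.0 to -0.49 and a median of -1.05. With UDCA 2 were lower, 2 higher (8.79% and 17.2% of all names) and 7 not called, with a median of -0.11. In the difference 7 of 11 were lower and none higher (8.87% and 18.8% of all names). The set spans the Ugt1 locus on chromosome 1 and the Ugt2 cluster on chromosome 5. Of the 7 UGT genes whose value could be read from a probe saturated on under 3 arrays, 7 were lower with CA and 7 lower in the difference (23.8% and 9.97% of all names by the same rule). The scanner's own processed signals ended the CA calls of Ugt1a6b (-0.15, adjusted p = 0.702), Ugt2b37 (-0.10, adjusted p = 0.755) and Ugt2b38 (-0.35, adjusted p = 0.267). The brightest probes of these genes were listed with transcripts of over 1 gene. Ugt1a6b lay above wild type on 3 of 5 CA arrays and Ugt2b37 on 3 of 6. Median centring in place of loess ended the CA calls of Ugt1a6b, Ugt2a3, Ugt2b5, Ugt2b34, Ugt2b35, Ugt2b37 and Ugt2b38 (adjusted p from 0.0712 to 0.374). It also ended all 7 UGT calls in the difference (adjusted p from 0.0944 to 0.395), with directions kept. Over all 15374 names it left 753 lower with CA and 87 lower in the difference.

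Ugt2b1, which glucuronidates steroids and drugs, fell most of the UGT genes with CA. Its ratio ran from -3.91 to -1.36 over the CA arrays (median -3.17) and from -1.19 to -0.25 over the UDCA arrays (median -0.81). Every array of both diets was thus below wild type, and the diets did not overlap. The fit gave -3.0 ± 0.23 (SE) with CA, 7.98-fold lower (adjusted p = 4.1e-08), and -0.73 ± 0.23 with UDCA (adjusted p = 0.030). The difference was -2.27 ± 0.32 (adjusted p = 2.3e-04). The UDCA call ended when any 1 of UDCA arrays 1, 2, 3 or 6 was left out, with values from -0.72 to -0.63 and adjusted p up to 0.104, and with slide as a fixed block (-0.37, adjusted p = 0.329).

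Ugt1a1, the enzyme that conjugates bilirubin, ran from -2.58 to -1.90 with CA (median -2.17) and from -1.41 to -0.51 with UDCA (median -0.59), all below wild type and without overlap. The fit gave -2.22 ± 0.13 (adjusted p = 4.2e-09) and -0.81 ± 0.13 (adjusted p = 4.0e-04), with a difference of -1.41 ± 0.19 (adjusted p = 1.5e-04). Ugt1a9, which acts on phenols and fatty acids, was lower with CA and not called with UDCA: its CA arrays ran from -2.35 to -1.40 and its UDCA arrays from -0.58 to 0.86. The fit gave -1.90 ± 0.16 with CA (adjusted p = 1.1e-07) and 0.16 ± 0.16 with UDCA, and the difference of -2.06 ± 0.23 was called (adjusted p = 4.1e-05). The probe in the shared exons was saturated on all 12 arrays and gave -0.68 with CA, a call that ended without CA array 1, 3 or 6 (adjusted p up to 0.097); a dimmer probe upstream, under the name Ugt1a6b and saturated on none, gave -0.80 and was called lower.

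Ugt2a1, known from the nasal epithelium as well as liver, ran from -2.61 to -1.45 with CA and from -0.87 to 0.61 with UDCA. The fit gave -1.86 ± 0.14 with CA (adjusted p = 3.7e-08) and -0.11 ± 0.14 with UDCA, and a second probe gave -1.77 and -0.14. The difference was -1.75 ± 0.20 (adjusted p = 5.0e-05). Ugt2a3 fell to -1.17 with CA and was -0.21 with UDCA; its difference of -0.95 (adjusted p = 0.024) was no longer called without CA array 1 or 3 or UDCA array 1 or 2 (adjusted p up to 0.062).

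Ugt2b34 and Ugt2b35 moved in opposite directions with the diets. Ugt2b34 ran from -1.93 to -0.24 on the CA arrays (median -1.11) and from 0.48 to 1.18 on the UDCA arrays (median 0.52), so every CA array was below wild type and every UDCA array above it. The fit gave -1.05 ± 0.16 (adjusted p = 5.8e-05), 0.63 ± 0.16 (adjusted p = 0.010) and a difference of -1.67 ± 0.23 (adjusted p = 1.7e-04). Ugt2b35 ran from -1.54 to 0.03 with CA (median -0.67) and from 0.36 to 0.95 with UDCA (median 0.89), with 1 CA array at wild-type level. Its fitted values were -0.72 ± 0.13 (adjusted p = 2.8e-04) and 0.78 ± 0.13 (adjusted p = 5.0e-04), with a difference of -1.49 ± 0.19 (adjusted p = 8.7e-05). On chromosome 5 the probes of Ugt2b34 (chr5:86827294-86827353, minus strand) and Ugt2b1 (chr5:86854051-86854110, minus strand) lie at the same end of the cluster, and with UDCA the first was higher and the second lower.

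The remaining UGT genes, Ugt2b5, Ugt2b37 and Ugt2b38, had their brightest probe saturated on 8 to 12 arrays. They fell with CA by 0.98, 0.49 and 0.61 on the log2 scale and were at -0.25, -0.10 and -0.21 with UDCA, with no call in the difference. A dimmer Ugt2b37 probe, saturated on 5 arrays, gave -1.24 with CA. The call of Ugt2b38 ended without CA array 3 (-0.47, adjusted p = 0.0589) and that of Ugt2b37 without CA array 1, 2, 3 or 6 or UDCA array 1 (adjusted p up to 0.149).

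**Figure D2:**
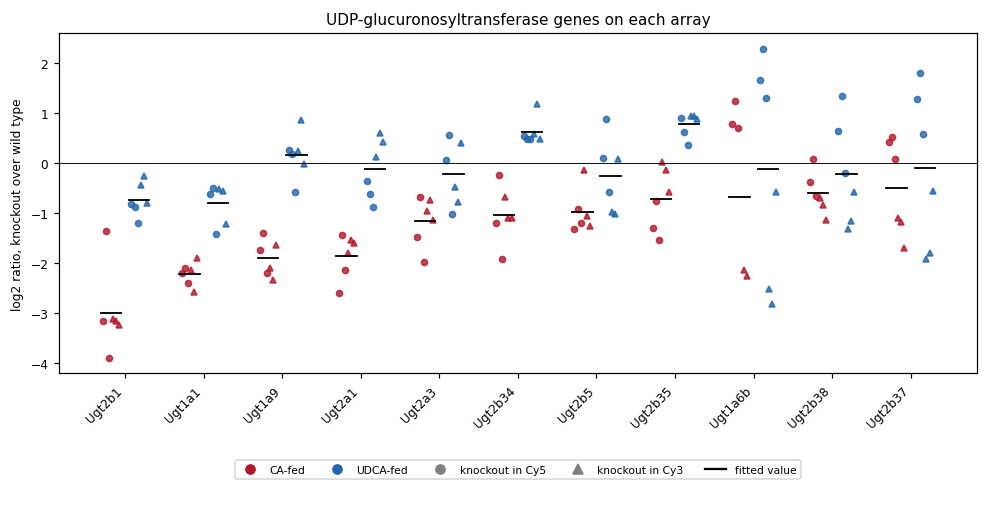
Log2 ratio of knockout over wild type on every array (vertical axis) for the 11 tested UGT genes; red is CA and blue UDCA, circles are arrays with knockout RNA in Cy5, triangles those with it in Cy3, and bars are fitted values. In Ugt2b34 all CA arrays lie below 0 and all UDCA arrays above, whereas the saturated Ugt1a6b probe splits by dye.

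RefSeq's table (GRCm38.p6) held a start for 52 of the 63 genes, and the 250 bases before each start were searched on both strands. The HNF4 motif CAAAGTCCA lay before 0 of the 52 (0.384% of all 32851 promoters). The antioxidant response element TGACNNNGC lay before 2, Aldh1a2 and Aldh9a1 (10.2% of all), and the xenobiotic response element core GCGTG before 9 (28.2% of all), among them both of these genes, with no overlap between the motifs there. None of these 3 motifs lay before any of the 10 UGT genes with an entry. A match of letters is a description of the sequence, and binding was not measured.

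Of 9 tested SULT genes, 6 were lower with CA, 2 higher (22.4% and 37.8% of all names) and 1 not called, and with UDCA 3 were lower and none higher (8.79% and 17.2%). Sult5a1, a sulfotransferase whose substrate is little known, had the lowest CA ratio of all 63 genes. It ran from -3.42 to -2.99 with CA (median -3.06) and from -2.66 to -1.29 with UDCA (median -2.31), below wild type on every array. The fit gave -3.11 ± 0.14, 8.62-fold lower (adjusted p = 5.5e-10), and -2.20 ± 0.14, 4.59-fold lower (adjusted p = 4.9e-08). The diets did not overlap, and the difference was -0.91 ± 0.19 (adjusted p = 0.0031).

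Sult1b1, which sulfates phenols and thyroid hormone, also fell with both diets. It ran from -3.10 to -1.05 with CA and from -1.75 to -0.89 with UDCA, again below wild type on every array, and the diets overlapped. The fit gave -1.82 ± 0.18 (adjusted p = 7.1e-07) and -1.30 ± 0.18 (adjusted p = 1.0e-04), and a second probe gave -1.72 and -1.24. The difference of -0.53 ± 0.26 was not called (adjusted p = 0.15). Sult1c1 ran from -2.07 to -0.56 with CA and from -0.51 to -0.07 with UDCA, without overlap, with fitted values of -1.19 ± 0.14 (adjusted p = 4.2e-06) and -0.29 ± 0.14 and a difference of -0.90 ± 0.20 (adjusted p = 0.0044).

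Sult1d1, which acts on catecholamines, and Sult1c2 fell by 0.70 and 0.66 with CA and were at -0.32 and -0.06 with UDCA. The difference of Sult1c2 (-0.61, adjusted p = 0.047) was called, and the call ended in 9 of the 12 fits that left out 1 array, those without CA array 1, 3, 4 or 6 or UDCA array 1 to 5 (adjusted p up to 0.104). Within slide 3 it was 0.53, of opposite sign. Sult4a1, a brain form, was slightly lower with both diets, at -0.27 ± 0.10 and -0.39 ± 0.10; the CA call ended without CA array 1, 2, 4 or 6 (adjusted p up to 0.107) and the UDCA call without UDCA array 2 (adjusted p = 0.0552). Sult1a1, the main phenol form of liver, was saturated on 10 arrays and was not called at -0.27 and -0.01.

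The SULT genes that rose with CA were Sult1e1 and Sult2b1. Sult1e1, the estrogen sulfotransferase, ran from -0.31 to 2.31 with CA (median 0.86), with a fit of 0.95 ± 0.24 (adjusted p = 0.0030); with CA it stood above background in the wild-type channel on 3 of 6 arrays. In the UDCA group its probe stood well above background on 0 of 6 knockout and 1 of 6 wild-type channels, so the UDCA value is near background. The difference of 1.15 ± 0.34 was called (adjusted p = 0.020), and not without UDCA array 3 (1.0, adjusted p = 0.0537). Sult2b1, which sulfates cholesterol in epithelia, was 0.63 ± 0.14 with CA (adjusted p = 0.0013), from 0.20 to 1.33 and above wild type on every CA array, and its wild-type channel stood above background on 1 of 6 of them. In the UDCA group it stood above background in neither RNA on any array, so that no ratio is given there and its called difference rests on signals near background. Sult1e1 and Sult2b1 were thus tested only through the CA knockout channel, where they are high, and the sizes of their CA ratios are uncertain. Sult2a2 and Sult3a1 were too dim to test; a Sult2a2 probe stood above background in the knockout channel on 4 of 6 arrays in each diet group and in the wild-type channel on 0.

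**Figure D3:**
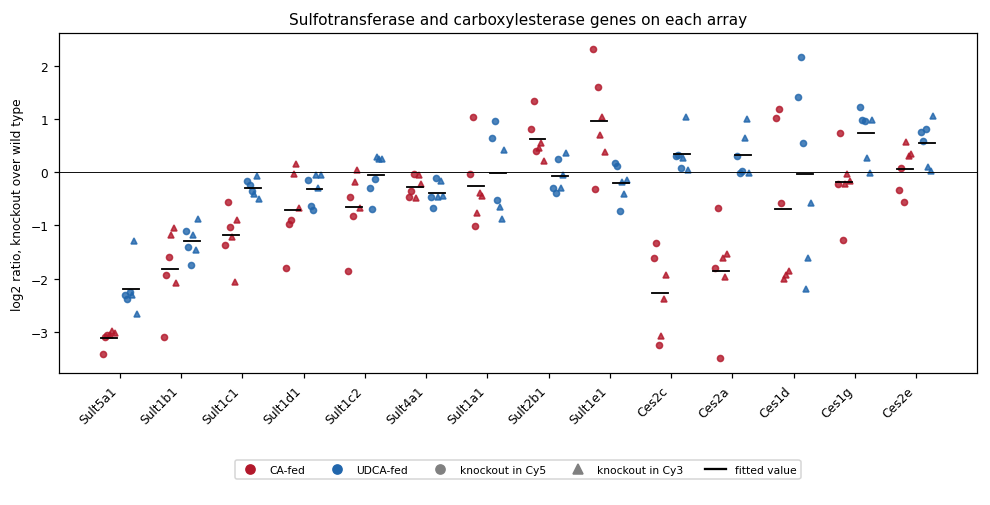
Log2 ratio of knockout over wild type on every array (vertical axis) for 9 SULT genes and 5 CES genes; colours, symbols and bars are as in the plot of the UGT genes. Sult5a1 and Sult1b1 lie below 0 on every array of both diets, and Ces2c and Ces2a below 0 on every CA array and near or above 0 with UDCA. Genes are drawn by their brightest probe, and a second Ces2c probe, not drawn, was at -0.01 with CA and above 0 on 3 of 6 CA arrays.

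Of 14 genes that supply the cofactors of these reactions, UDP-glucuronic acid and PAPS, 4 were lower and 3 higher with CA (22.4% and 37.8% of all names), none lower and 3 higher with UDCA (8.79% and 17.2%), and 5 lower and 1 higher in the difference (8.87% and 18.8%). Ugdh, which makes UDP-glucuronic acid, was -0.08 with CA and rose to 1.43 with UDCA, a difference of -1.51. Slc35d1, which carries it into the endoplasmic reticulum, fell by 1.04 with CA and was at 0.14 with UDCA. Papss2, the PAPS synthase of liver, fell by 1.45 with CA and was at -0.50 with UDCA, whereas Papss1, the general form, rose by 1.10 and 0.66. Gusb, the lysosomal glucuronidase that reverses the reaction, rose by 1.16 and 0.96.

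Among 5 tested carboxylesterases, 3 were lower with CA and none higher (22.4% and 37.8% of all names), and with UDCA 2 were higher and none lower (17.2% and 8.79%). Ces2c ran from -3.25 to -1.33 with CA (median -2.16) and from 0.03 to 1.03 with UDCA (median 0.29), below wild type on every CA array and above it on every UDCA array. The fit gave -2.26 ± 0.22 with CA (adjusted p = 4.2e-07), 0.34 ± 0.22 with UDCA, which was not called, and a difference of -2.60 ± 0.31 (adjusted p = 5.9e-05). A second Ces2c probe, further downstream at chr8:103452998-103453057 on the plus strand and also saturated on no array, gave -0.01 with CA, 0.82 with UDCA and a called difference of -0.83. Both probes of the gene were tested in the same fit: they differed in the CA ratio and had the same sign in the difference.

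Ces2a, a neighbour of Ces2c on chromosome 8, ran from -3.49 to -0.68 with CA and from -0.03 to 0.99 with UDCA. The fit gave -1.85 ± 0.24 (adjusted p = 1.1e-05) and 0.32 ± 0.24, with a difference of -2.17 ± 0.34 (adjusted p = 4.5e-04). Ces1d, a triglyceride hydrolase, was saturated on all 12 arrays; its CA value of -0.70 (adjusted p = 0.021) was no longer called without CA array 3 (-0.43, adjusted p = 0.108) or without CA arrays 3 and 4 (-0.40, adjusted p = 0.196). Ces1g, which hydrolyses triglyceride and cholesteryl ester, was -0.20 with CA and rose by 0.73 ± 0.20 with UDCA (adjusted p = 0.015), with a difference of -0.92 (adjusted p = 0.026). Ces2e rose by 0.55 with UDCA (adjusted p = 0.019) and was 0.06 with CA, by a probe saturated on 8 arrays. The UDCA calls of Ces1g ended without UDCA array 1 (adjusted p = 0.0625) and of Ces2e without UDCA array 1, 2, 3 or 6 (adjusted p up to 0.0758), and the difference of Ces1g without CA array 1 or UDCA array 1, 2 or 3 (adjusted p up to 0.0659). A dimmer Ces2e probe, saturated on 0 arrays, was called lower with CA (-0.39, adjusted p = 0.019) and higher with UDCA (0.52, adjusted p = 0.0089). Its difference was -0.92 (adjusted p = 0.0025), without overlap. The wild-type channel of that probe stood above background on 5 of 6 CA and 4 of 6 UDCA arrays.

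The FMO genes went both ways with CA: Fmo1 and Fmo4 were lower, Fmo2 was higher, and Fmo5 was higher with UDCA. Fmo2, the lung form, ran from 0.76 to 1.33 with CA and from 0.00 to 0.51 with UDCA, without overlap, with fitted values of 1.14 ± 0.10 (adjusted p = 1.8e-07) and 0.15 ± 0.10 and a difference of 1.0 ± 0.14 (adjusted p = 2.3e-04). Its wild-type channel stood above background on 5 of 6 CA and 3 of 6 UDCA arrays.

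Fmo1 fell with CA. It ran from -1.71 to -0.31 with CA and from -0.55 to 0.60 with UDCA, with fitted values of -1.03 ± 0.18 (adjusted p = 1.5e-04) and 0.18 ± 0.18 and a difference of -1.21 ± 0.25 (adjusted p = 0.0027). Fmo4 was -0.33 ± 0.10 with CA (adjusted p = 0.011), and its difference of -0.50 ended as a call without UDCA array 1 or 2 (adjusted p up to 0.0543), although its diets did not overlap; its wild-type channel stood above background on 4 of 6 CA and 2 of 6 UDCA arrays. Fmo5, a liver form, rose by 1.0 ± 0.26 with UDCA (adjusted p = 0.011), from 0.70 to 1.28 and above wild type on every UDCA array. With CA it ran from -1.15 to 1.69 and was not called at 0.57.

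Of the epoxide hydrolases, Ephx2, the soluble form that opens fatty acid epoxides, was -0.79 ± 0.26 with CA (adjusted p = 0.015) and -0.27 with UDCA, from a probe saturated on all 12 arrays. Its CA arrays gave 0.28, 0.86 and 0.24 with knockout RNA in Cy5 and -1.50, -2.40 and -2.23 with it in Cy3. The CA call of Ephx2 ended without CA array 1 or 3 (adjusted p up to 0.0553) and from the scanner's own processed signals, which gave -0.11. Ephx1, the microsomal form, was at -0.01 and 0.27 and was not called.

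Among 17 tested ALDH genes, 6 were lower and 4 higher with CA (22.4% and 37.8% of all names), and 3 lower and 4 higher with UDCA (8.79% and 17.2%). Those that rose with CA were Aldh3b1, Aldh1a2, Aldh18a1 and Aldh3b2. Aldh3b1, which clears lipid aldehydes at membranes, ran from 1.15 to 2.13 with CA (median 1.48) and from 0.81 to 1.42 with UDCA (median 0.96), above wild type on every array. The fit gave 1.59 ± 0.13, 3.00-fold higher (adjusted p = 8.5e-08), and 1.04 ± 0.13 (adjusted p = 3.2e-05); its difference of 0.55 (adjusted p = 0.038) ended as a call without CA array 2 or 5 or UDCA array 1, 2, 4 or 5 (adjusted p up to 0.0959).

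Aldh1a2, a retinoic acid synthase of mesenchymal cells, ran from 0.42 to 1.79 with CA and from 0.17 to 2.46 with UDCA, again above wild type throughout, with fitted values of 1.16 ± 0.25 (adjusted p = 9.2e-04) and 0.90 ± 0.25 (adjusted p = 0.016). Aldh18a1, which makes the proline precursor from glutamate, ran from 0.15 to 2.65 with CA, with a fit of 1.11 ± 0.23 (adjusted p = 6.1e-04). With CA it stood above background in the knockout channel on all 6 arrays and in the wild-type channel on 2, so that it was tested only through the group where it is high and the size of its ratio is uncertain. With UDCA it stood above background in the knockout channel on 2 of 6 arrays and in the wild-type channel on 0. Aldh3b2 rose by 0.70 ± 0.17 with CA (adjusted p = 0.0022), where its wild-type channel stood above background on 3 of 6 arrays, and was at 0.14 with UDCA, where that channel did on 1.

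Aldh3a2, the fatty aldehyde dehydrogenase, went in opposite directions. It ran from -1.01 to 0.16 with CA (median -0.50) and from 0.24 to 0.86 with UDCA (median 0.58), with no overlap and every UDCA array above wild type. The fit gave -0.48 ± 0.14 (adjusted p = 0.0092), 0.57 ± 0.14 (adjusted p = 0.0085) and a difference of -1.06 ± 0.20 (adjusted p = 0.0017). Aldh9a1, which makes carnitine precursors, fell by 1.01 ± 0.16 with CA and 0.68 ± 0.16 with UDCA, and Aldh7a1, of lysine breakdown, fell by 0.86 ± 0.16 with CA and was at -0.10 with UDCA. The difference of Aldh7a1 (-0.76, adjusted p = 0.023) was not called without CA array 5 or UDCA array 1, 4 or 5 (adjusted p up to 0.0562).

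Aldh1a1, the main retinal dehydrogenase of liver, was saturated on all 12 arrays, and its ratio split by dye over the 4 CA and 6 UDCA values left, from -2.26 to 1.06 with CA and from -2.59 to 3.23 with UDCA. Its fitted -0.93 ± 0.32 with CA turned to 0.03 without the dye term, and its difference of -1.29 ± 0.40 turned to 0.08 with slide as a fixed block. Without 1 array the CA call ended for CA arrays 2 and 3 (adjusted p up to 0.0912) and the difference for CA arrays 1, 2 and 3 and UDCA arrays 1 and 2 (adjusted p up to 0.0867). Aldh1a7, a close relative, was higher with UDCA at 0.58 (adjusted p = 0.0095) and was also saturated on 10 arrays; with slide as a fixed block it was 0.12 (adjusted p = 0.665), and without the dye term the call ended too (adjusted p = 0.11). Aldh8a1 and Aldh5a1 were lower with CA at -0.39 and -0.28. These calls ended in 7 and 8 of the fits that left out 1 array. For Aldh8a1 these were the fits without CA array 3 or 6 or UDCA array 1 to 5 (adjusted p up to 0.211), and for Aldh5a1 those without CA array 1, 2, 5 or 6 or UDCA array 1, 2, 4 or 5 (adjusted p up to 0.174). Aldh6a1 and Aldh1l1 were lower with UDCA at -0.92 and -0.70, both from saturated probes, Aldh6a1 over 4 values per diet. The call of Aldh6a1 ended without CA array 1, 2, 4 or 6 or UDCA array 1, 3, 4 or 5 (adjusted p up to 0.115), and that of Aldh1l1 without CA array 1, 5 or 6 or UDCA array 1, 3, 4 or 5 (adjusted p up to 0.181).

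The 3 tested alcohol dehydrogenases were saturated on 6 to 12 arrays. Adh4, which also oxidises retinol, was -0.68 ± 0.21 with CA (adjusted p = 0.010) and -0.14 with UDCA. It ran from -1.49 to 0.49 over the CA arrays, and its call ended with the scanner's own processed signals (-0.48, adjusted p = 0.0764). Adh1 and Adh5 were not called, at -0.14 and -0.36 with CA.

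Of 11 tested AKR1 genes, 3 were lower and 2 higher with CA (22.4% and 37.8% of all names), and 1 lower and 1 higher with UDCA (8.79% and 17.2%). The 3 that fell, Akr1c14, Akr1c12 and Akr1c13, belong to the hydroxysteroid dehydrogenase cluster of chromosome 13. Akr1c14 ran from -2.40 to -0.94 with CA (median -1.75) and from -0.86 to 0.08 with UDCA (median -0.69), without overlap. The fit gave -1.74 ± 0.17 (adjusted p = 5.3e-07), -0.57 ± 0.17 (adjusted p = 0.022) and a difference of -1.16 ± 0.24 (adjusted p = 0.0027); the UDCA call ended without UDCA array 1, 3 or 4 (adjusted p up to 0.0923), with slide as a fixed block (-0.15, adjusted p = 0.601) and with slide as a random block (-0.50, adjusted p = 0.079). Akr1c12 ran from -1.91 to -0.53 with CA and from -0.70 to 0.08 with UDCA, with -1.23 ± 0.12 (adjusted p = 3.4e-07), -0.28 ± 0.12 and a difference of -0.96 ± 0.16 (adjusted p = 7.5e-04). Akr1c13, whose probe is also listed for Akr1c12, gave -1.09 ± 0.17, -0.12 ± 0.17 and a difference of -0.97 ± 0.24 (adjusted p = 0.0076).

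The AKR1 genes that rose are of the aldose reductase-like subgroup on chromosome 6. Akr1b7 ran from -0.14 to 1.45 with CA and from -0.05 to 2.00 with UDCA, with 0.57 ± 0.23 (adjusted p = 0.045) and 0.89 ± 0.23 (adjusted p = 0.011). In each group its knockout channel stood above background on 5 of 6 arrays and its wild-type channel on 1, so that it was tested only through the channel where it is high and the size of its ratio is uncertain. Its CA call ended without CA array 1, 2, 4 or 5 or UDCA array 1, 2 or 4 (adjusted p up to 0.154). Akr1b8, a close relative, rose by 0.47 ± 0.10 with CA (adjusted p = 9.2e-04) and was at 0.19 with UDCA.

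The scatter of both diets places the members among all tested names. Sult5a1 and Ugt2b1 had the lowest CA ratios of the members (-3.11 and -3.0), whereas CA ratios over all names ran down to -6.97. By their brightest probes, Ugt1a9, Ces2a and Ces2c lie low with CA and near 0 with UDCA.

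**Figure D4:**
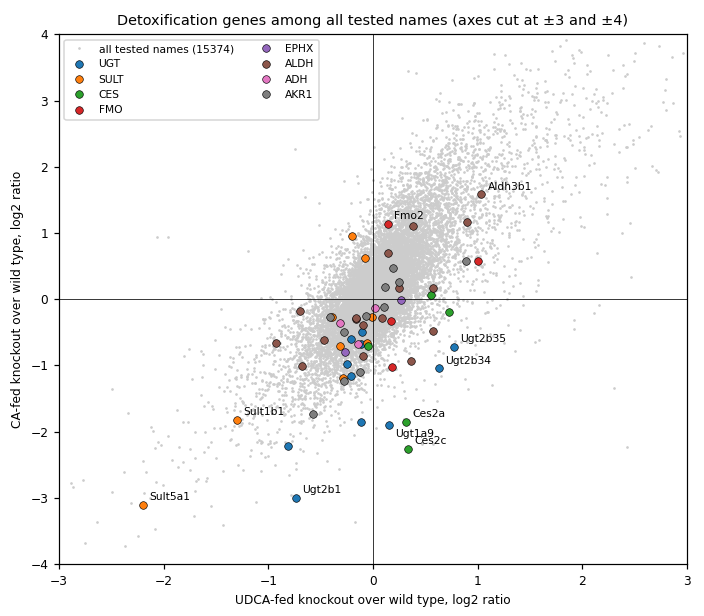
Log2 ratio over wild type with UDCA (horizontal axis) against that with CA (vertical axis) for the 15374 tested names in grey and the detoxification genes by family in colour, without 1 gene. Both axes are cut, so that names with larger ratios lie outside the plot (over all names down to -6.97 with CA and -4.74 with UDCA). Whether the same wild-type livers served both axes is not known here; Ugt2b34 and Ugt2b35 lie below 0 with CA and above 0 with UDCA.

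Because bright probes saturated, genes with several probes were read through each of them. Of 18 genes with over 1 tested probe, 13 had the brightest saturated on 3 or more arrays, and in 11 of these the dimmest probe gave a CA ratio farther from 0. Akr1c19, a hydroxysteroid dehydrogenase, was -0.49 by its brightest probe, saturated on all 12 arrays, and -2.05 ± 0.24 by a probe saturated on none, whose UDCA value was -0.14 and whose difference was -1.91 ± 0.33 (adjusted p = 8.8e-04). Aldh2, the mitochondrial enzyme that clears acetaldehyde, was -0.61 by the brightest and -1.53 by the dimmest probe. Akr1c20, Aldh4a1 and Aldh16a1 likewise were not called by the brightest probe, at -0.27, -0.29 and -0.30, and were called lower by the dimmest, at -1.20, -1.04 and -1.04. Akr1b3, the aldose reductase, was 0.25 and 0.63. Ces2e and Fmo5 changed sign between the probes, from 0.06 to -0.39 and from 0.57 to -0.19. When the brightest probe saturated on under 3 arrays was taken in each gene, 39 genes remained testable, with 25 lower and 11 higher with CA (23.8% and 39.4% of all names by the same rule), 6 lower and 8 higher with UDCA (8.78% and 17.6%), and 19 lower and 4 higher in the difference (9.97% and 19.9%).

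The lists of neighbouring pathways, of sex-biased genes and of cell markers were read in the same fit. Over all names, 22.4% were lower and 37.8% higher with CA, 8.79% and 17.2% with UDCA, and 8.87% and 18.8% in the difference. Of 16 regulators of detoxification genes, 9 were lower and 2 higher with CA, and 7 lower and 3 higher with UDCA. Nr1i3 (CAR) fell by 1.97 and 1.12, with a difference of -0.84, and Nr1i2 (PXR) was at 0.06 with CA and 0.47 with UDCA, where it was called. Hnf4a fell by 0.61 and 0.74, Ppara, the fatty acid receptor, by 1.71 and 1.08, and Nr1h4, the bile acid receptor FXR, fell by 0.93 with CA and was at -0.02 with UDCA. Nfe2l2 (NRF2) rose by 0.85 and 1.14.

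Of 11 CAR and PXR target genes outside the families, 2 were higher and 5 lower with CA, 7 higher and 1 lower with UDCA, and 7 lower in the difference, with medians of -0.46 and 1.14. The list's mean ratio was -0.05 and -0.11 on UDCA arrays 4 and 5 and from 1.34 to 2.10 on the other 4 UDCA arrays, and ran from -1.27 to 0.38 over the CA arrays. Cyp2b10, the classic CAR target, was -0.45 with CA and rose by 1.92 with UDCA, and Cyp2b9 fell by 2.23 and rose by 2.42. Of 13 NRF2 target genes, 3 were higher and 2 lower with CA and 10 higher and none lower with UDCA, with medians of 0.15 and 0.69. UDCA arrays 4 and 5 again had the lowest list means of their group, 0.12 and 0.19 against 0.67 to 1.39. Both arrays lie on slide 4 and had the knockout RNA in Cy3. UDCA array 3, on slide 4 with Cy5, gave 1.79 (CAR and PXR list) and 1.22 (NRF2 list). UDCA array 6, on slide 5 with Cy3, gave 1.34 and 0.67. Whether dye or liver set UDCA arrays 4 and 5 apart was not tested. Srxn1 rose by 0.69 and 2.14 and Gclc, of glutathione synthesis, fell by 0.63 and rose by 1.07. Of 32 other conjugating and detoxifying enzymes, 17 were lower and 2 higher with CA and 3 lower and 6 higher with UDCA. Glyat, the glycine conjugase of benzoate, fell by 1.91 and 0.44, Aox1 fell by 0.65 and rose by 0.84, and Cbr3, a carbonyl reductase, rose by 2.44 and 2.03.

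Several other lists moved with the diets. Of 10 liver genes known to be higher in males, 7 were lower with CA and 7 lower with UDCA, with medians of -1.36 and -1.09 and summary levels per array from -2.43 to -0.55 and from -2.33 to -0.11. Of 9 known to be higher in females, 5 were lower and 2 higher with CA and 6 higher and none lower with UDCA, with medians of -0.50 and 1.07. Of 4 Y-linked genes 1, Ddx3y, was called, at -0.47 with CA. Of 11 hepatocyte markers, 2 were lower with CA and 1 with UDCA and none differed between the diets by a call, with medians of -0.32 and -0.20; 11 cholangiocyte markers were all higher with CA (median 2.76) and 7 of them with UDCA (median 1.19), and 12 of 12 and 11 of 12 stellate cell and fibroblast markers were higher. Of 10 macrophage markers, 6 were higher and 4 lower with CA, 7 higher and 1 lower with UDCA, and 5 higher and 4 lower in the difference; the Kupffer cell marker Clec4f was -3.37 with CA and -0.18 with UDCA. Both tested B cell markers and both tested neutrophil markers were higher with CA and 1 of each with UDCA, of 5 T and NK cell markers 3 were higher and 1 lower with CA, and of 8 endothelium markers 2 were higher and 2 lower. The 11 tested hepatocyte markers stood well above background in both RNAs on every array, and most were saturated. Their mean ratio per array split by dye. With CA it ran from 1.15 to 1.60 where the knockout RNA was in Cy5 and from -2.26 to -1.91 where it was in Cy3. With UDCA it ran from 1.10 to 1.90 in Cy5 and from -2.60 to -0.56 in Cy3. The medians of these markers thus rest on arrays of opposite sign. The part of sex-biased expression and of cell composition in the detoxification genes was not tested, and in whole liver fewer cells of a type and less RNA per cell cannot be told apart.

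The 12 members without a tested probe were Adh6-ps1, Adh6a, Adh7, Akr1c18, Akr1c21, Aldh1a3, Aldh1l2, Aldh3a1, Ces5a, Fmo6, Sult2a2 and Sult3a1. Fmod was higher with CA at 0.72 and was at 0.35 with UDCA, where it was not called. A further 13 genes belong to the families by their current symbol but not by the name on the array, among them Ces1c, Ces1e and Ces1f, and were left out.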

How the data were processed

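RNA of 12 two-colour Agilent 4x44K hybridisations was read as scanner intensity: the deposited files hold red and green mean and background intensities per spot, extracted with Feature Extraction 9.5.3 per the labels. The series' value table holds log2 ratios that the authors deposited without a stated normalization; compared with the scanner values, its CA columns run wild type over knockout, its UDCA columns the other way, and it served as an alternative after turning. The log10 ratios of the processed signals that the authors deposited in the same files were used only to set the value table's direction, and the processed intensities of both channels served as an alternative.

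In R 4.3.3 with limma 3.58.1, spots were background-corrected (normexp, offset 50) and normalized by loess within arrays, with 1639 control spots at weight 0 and scanner outlier flags set missing (1.34% of values). A probe was tested if it stood well above background on at least 5 of 6 arrays of a diet group in knockout or wild-type RNA (21689 probes, 15374 names). Log2 ratios were fitted on CA, UDCA and dye (9 residual degrees of freedom, prior 5.95), with p-values adjusted by Benjamini-Hochberg over all probes and called under 0.05. A gene took its brightest tested probe, and current symbols were matched through accessions (15543 tested probes matched). The array read 6 hybridisations of 5 livers per diet. The labels used here do not say which pair shares a liver, and all 6 were counted, so p-values are too small by an amount that is not known. Averaging the likeliest pair ended 9 of the called values of members. Any reuse of wild-type livers between arrays was not modelled. The number of arrays limits the precision. Members, gene lists and tests were chosen with earlier results of these data known. Ranges on the arrays were given mainly for genes chosen by a rule. The rule took up to 3 called members that moved most in each family and comparison. It also took those called in opposite directions and up to 10 without overlap between the diets. Not every such gene is given with its range, and any member may be named. On simulated ratios over 21693 probes, a change of 1 was recovered in 95% of probes for CA and 92% for UDCA, and a change of 0.5 in 26% and 42%; in the difference of the diets a change of 1 in either diet was recovered in 72% and 64%, and one of 0.5 in 6%. The alternatives were 17 planned ones and 2 chosen after seeing the data. Promoters are RefSeq's, GRCm38.p6. Figures were drawn with matplotlib. A tested member and a regulator enter the counts but are not reported here by name or drawn. Gene names are matched in part to a reference of another build than the probes' mm7 coordinates, which are as the files give them.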

Additional observations from a re-analysis of the deposited data

Results flagged for a closer look

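Of the 63 tested genes, 25 were called in the difference of the diets by limma, and the values, CA minus UDCA, were as follows. Among the UGT genes they were -2.27 for Ugt2b1, -2.06 for Ugt1a9, -1.75 for Ugt2a1, -1.67 for Ugt2b34, -1.49 for Ugt2b35, -1.41 for Ugt1a1 and -0.95 for Ugt2a3. Among the carboxylesterases they were -2.60 for Ces2c (-0.83 by its second probe), -2.17 for Ces2a and -0.92 for Ces1g. The AKR1 values were -1.16 for Akr1c14, -0.97 for Akr1c13 and -0.96 for Akr1c12. The SULT values were -0.91 for Sult5a1, -0.90 for Sult1c1, -0.61 for Sult1c2, 0.70 for Sult2b1 and 1.15 for Sult1e1; with UDCA Sult2b1 stood above background in neither RNA and Sult1e1 on 1 wild-type channel, so that the sizes of both are uncertain. The FMO values were -1.21 for Fmo1, -0.50 for Fmo4 and 1.0 for Fmo2, and the ALDH values -1.29 for Aldh1a1, -1.06 for Aldh3a2, -0.76 for Aldh7a1 and 0.55 for Aldh3b1.

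In 126 groups of 4 to 6 arrays (117 of them of 6), 8 held an array far from the others by Dixon's test, where chance flags about 1 group in 20. UDCA array 5 was such an array in 3 genes: 1.03 for Ces2c, where the next value was 0.31, 1.18 for Ugt2b34 (next 0.59) and -1.29 for Sult5a1 (next -2.25). CA array 2 stood at -1.36 for Ugt2b1 (next -3.13), and CA array 1 at -3.42 for Sult5a1 (next -3.09). CA array 6 stood at 0.76 for Fmo2 (next 1.18) and at -0.25 for Akr1b3 (next 0.26), and CA array 4 at -0.14 for Ugt2b5 (next -0.92).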

How the results depend on the processing

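Of the called values of members, 33 of 43 with CA, 12 of 19 with UDCA and 17 of 25 in the difference stayed called whichever 1 array was left out. The counts of members then ranged from 9 to 11 higher and 26 to 34 lower with CA, from 8 to 11 higher and 5 to 9 lower with UDCA (5 without UDCA array 1 or 3), and from 3 to 6 higher and 15 to 22 lower in the difference. Over all names, 5391 to 5924 were higher and 3050 to 3583 lower with CA in these fits. With UDCA 2139 to 2848 were higher and 1003 to 1505 lower, and in the difference 2281 to 3320 and 977 to 1592. Median centring in place of loess, which leaves dye effects that vary with brightness, moved the median over all names to 0.30 with CA and 0.32 with UDCA. With this centring 7 members were higher and 9 lower with CA, where 3932 and 753 of all 15374 names were. With UDCA 3 were higher and 1 lower (1548 and 92 names), and in the difference 0 were higher and 1 lower (583 and 87 names). The scanner's processed signals gave 12 higher and 24 lower with CA (5366 and 3803 of 15374 names). The value table of the series, turned, gave 38 lower in the difference (2266 of 15374 names). Only probes above background on all 12 arrays in both channels left 2 higher with CA and 1 higher in the difference, over 52 genes (2750 and 1309 of 9336 names). With slide as a fixed block 5 were lower with UDCA and 0 higher in the difference (1046 and 1199 of 15374 names). With slide as a random block 5 were lower with UDCA (1104 names). Aldh1a1 reversed to 0.031 with CA without the dye term and to 0.077 in the difference with slide as a fixed block, and Sult1c2 to 0.53 in the difference within slide 3; the cause was not tested. With the replicate number as a block 10 were higher and 33 lower with CA (5570 and 3279 of 15374 names). With UDCA these counts were 10 and 8 (2326 and 1183 names), and in the difference 3 and 21 (2416 and 1089 names). The block ended 5 single calls. Residual correlations of same-numbered arrays of the diets ran from -0.57 to 0.13. Those arrays share the dye orientation, and the fit has 1 dye term, so a dye effect that differs between the diets would lower these correlations. Whether the numbers pair the arrays cannot be told from them. Of the 87 called values of members, 66 lost their call with median centring, 20 with the scanner's processed signals, 11 with slide as a random block and 2 with saturated spots set to missing. Ratios from saturated channels and from channels near background are limited by the signal.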
